A study of Mus musculus with 36 samples.

Results

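Uridine is broken down and recycled in the liver by a short series of enzymes, and the genes of these enzymes were followed here in the livers of 36 mice on Agilent whole-mouse genome microarrays. The members were Upp2 and Upp1, the uridine phosphorylases, Dpyd, Dpys and Upb1, the enzymes of uracil breakdown, Cda, which deaminates cytidine, and Uck1 and Uck2, the kinases of uridine and cytidine. Probes were taken as members when the gene name in the scanner files, or the current symbol of the accession there, was among these 8 genes. These genes had 11 of the 41174 probes of the array. Of these, 10 probes of 7 genes were in the authors' table of processed values, which holds 21781 probes of 13041 named genes, and all values below except those of Upp1 come from that table. Upp2 was selected on its log2 differences between the groups, which were known from earlier results, so these differences are given as a description, with no test.

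All mice were adult males labelled as C57BL/6J, while the substrain C57BL/6JOlaHsd is named for the control and quercetin mice elsewhere in the sources used. They received the same mild-high-fat diet with 30 energy % of fat and were fasted for at least 2 h before they were killed. The baseline group (t=0, n = 12) was killed at 0 weeks, directly after the adaptation to the diet. The control group (HF, n = 12) stayed on the diet for another 12 weeks. The quercetin group (HF-Q, n = 12) received the diet with 0.33% (w/w) quercetin, a plant flavonol, for the same 12 weeks. The comparison of quercetin with control addresses the supplement, and the comparisons with baseline also span age and time on the diet, which cannot be told apart. Each array carried the Cy5-labelled RNA of a single mouse and a Cy3-labelled pool of all samples as the reference, so the values are log2 Cy5 signals normalized against the pool. The time of day at which each mouse was killed was not given in the sources used here.

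Uridine phosphorylase splits uridine into uracil and ribose-1-phosphate. Uracil is then reduced by dihydropyrimidine dehydrogenase (Dpyd), the ring is opened by dihydropyrimidinase (Dpys), and beta-ureidopropionase (Upb1) releases beta-alanine. Uridine kinases return uridine to the nucleotide pool instead. The liver is the main site of this breakdown and clears uridine from the blood, and Upp2 is the form of the phosphorylase typical of liver. Uridine phosphorylase activity in rodent liver is known to follow a daily rhythm.

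The Upp2 probe (A_52_P259817, NM_029692) lies on chromosome 2 of mouse build mm8, plus strand, at chr2:58595399-58595458. RefSeq lists 2 starts for Upp2 on the plus strand of GRCm38.p6, 187850 bases apart, and the arrays do not tell their transcripts apart. The 250 bases before the downstream start, chr2:58754934-58755183, are shown because only they, of the 2 starts, held any of the 4 motifs searched. The capitals mark the hexamer AGGTCA, searched as a half-site of the ROR and REV-ERB nuclear receptors, and the TATA box TATAAA.
Upp2, downstream start: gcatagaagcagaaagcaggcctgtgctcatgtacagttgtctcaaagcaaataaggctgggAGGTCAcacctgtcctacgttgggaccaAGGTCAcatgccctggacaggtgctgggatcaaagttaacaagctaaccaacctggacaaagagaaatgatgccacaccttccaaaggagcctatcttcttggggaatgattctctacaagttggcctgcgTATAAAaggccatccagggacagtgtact
AGGTCA occurred at 2 places, starting 188 and 160 bases before the start, and TATAAA began 29 bases before it. Over the same 250 bases of 32851 RefSeq promoters, 14.0% held AGGTCA on either strand and 7.59% held TATAAA on the plus strand. The E-box CACGTG, present in 6.02% of promoters, and the D-box TTATGNAA, present in 3.07%, were searched on both strands and were not among these letters, and the motifs found did not overlap. The 250 bases before the upstream start, chr2:58567084-58567333, held none of the 4 motifs and had a GC content of 73.2%, against 49.2% before the downstream start and a median of 52.4% over all promoters. These matches describe the letters only, and binding of any factor was not tested.

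Upp2 was highest in the baseline group, intermediate in the quercetin group and lowest in the control group. Its log2 value ranged from 10.69 to 13.17 in the baseline mice, with a median of 12.33. In the control mice it ranged from 9.62 to 12.11, with a median of 10.68. In the quercetin mice it ranged from 10.07 to 12.46, with a median of 11.79. The 3 ranges overlapped, and a single quercetin mouse, replicate 10 at 10.07, lay below the control median while the other 11 lay above it. All 12 control mice lay below the baseline median, and 10 of 12 quercetin mice did. On all arrays the Upp2 spot was well above background and none was saturated.

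**Figure D1:**
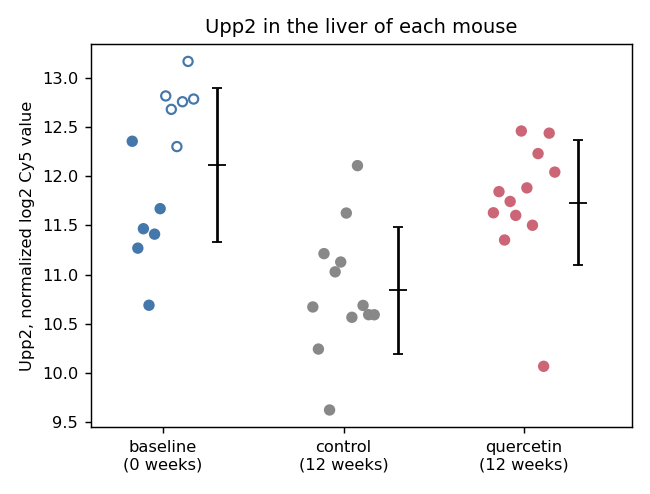
Normalized log2 Cy5 value of Upp2 in the liver of each mouse (y axis) by group (x axis, 12 mice each). Points are mice, spread sideways only for legibility, open points are baseline replicates 7 to 12, and the black mark with its bar is the mean ± SD. The baseline mice fill the top of the range, from 10.69 to 13.17, and all control mice lie at or below 12.11.

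The mean of Upp2 was 12.11 ± 0.78 (SD, n = 12) in the baseline, 10.84 ± 0.64 (SD, n = 12) in the control and 11.73 ± 0.63 (SD, n = 12) in the quercetin group. The quercetin mean exceeded the control mean by 0.89 on the log2 scale (standard error 0.24), which is 1.86-fold. The control mean lay 1.28 below the baseline mean (difference -1.28, standard error 0.27), so that baseline was 2.42-fold higher. The difference of quercetin from baseline, -0.38 (standard error 0.26), was smaller than the SD between mice of either group. Since whole liver was measured, fewer cells that express a gene and less RNA per cell cannot be told apart.

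Every slide held arrays of all 3 groups, so the differences of Upp2 could also be read within slides. Quercetin was above control on 8 of 9 slides, with differences from -0.84 to 2.27 and a median of 0.90. Control was below baseline on 9 of 9 slides, with differences from -3.19 to -0.38. Quercetin was below baseline on 7 of 9 slides. With slide as a block, the quercetin minus control difference was 0.88 (standard error 0.26), close to that without the block.

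The baseline group was not uniform in Upp2. Baseline replicates 1 to 6 ranged from 10.69 to 12.36 (median 11.44), and replicates 7 to 12 from 12.30 to 13.17 (median 12.77). This split by replicate number was made with earlier results of these mice known, and the labels name nothing that distinguishes the 2 sets. Against replicates 1 to 6 alone, control was lower by a difference of -0.64 and quercetin was higher by 0.26 (standard error 0.27), so the sign of the quercetin minus baseline difference turned. Against replicates 7 to 12 alone, the differences were -1.91 for control and -1.02 for quercetin. Arntl, a core clock gene, also differed between these sets, with values from 8.06 to 9.45 in replicates 1 to 6 and from 7.10 to 8.20 in replicates 7 to 12.

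An array and a liver stood apart from the rest. On the array of quercetin replicate 2, 96.7% of the Cy5 spots and 87.9% of the Cy3 spots were well above background, more than on any other array. Without it the quercetin minus control difference of Upp2 was 0.88. Summed levels of markers are given as the log2 of their summed signals. In control replicate 5 that of the 2 pancreatic acinar markers in the table, Cela1 and Cpa1, reached 20.53, against at most 10.94 in the baseline and quercetin groups. Without that mouse the Upp2 difference was 0.91 for quercetin minus control and -1.29 for control minus baseline. The summed level of 4 hepatocyte markers (Alb, Ttr, Apoa1 and Cps1) ranged from 19.33 to 20.08 in the baseline, 19.54 to 20.06 in the control and 19.41 to 20.20 in the quercetin group. Of these 4, Cps1 was lower than baseline in control (difference -0.32) and in quercetin (-0.45), Ttr was lower than baseline in quercetin (-0.33), and none was called by limma between quercetin and control. Of the 5 cholangiocyte markers, Krt19, Krt7 and Sox9 were higher in control than in baseline and Sox9 was lower in quercetin than in control, and their summed level ranged from 13.37 to 14.64 in the baseline, 13.59 to 14.71 in the control and 13.39 to 14.11 in the quercetin group. Of 2 erythroid markers, Hba-a1 was higher than baseline in control and in quercetin, and Alas2 was lower than baseline in quercetin. Their summed levels ranged from 14.44 to 15.18 in the baseline, 15.08 to 16.75 in the control and 15.25 to 16.26 in the quercetin group. Of 5 endothelial markers, Pecam1 was lower in control than in baseline and higher in quercetin than in control, with summed levels from 14.17 to 14.57 in baseline, 14.21 to 14.63 in control and 14.22 to 14.58 in quercetin. Of 6 Kupffer cell and macrophage, 5 stellate cell and fibroblast and 3 lymphocyte markers, 0 were called in any comparison. Over all probes, 2.36% were called between quercetin and control, 21.3% between control and baseline and 11.9% between quercetin and baseline. The adipocyte markers Adipoq and Plin1 were not in the table. The part of these cells in the differences of the members was not tested.

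Upp1, the phosphorylase found in most other tissues, did not rise above background in these livers. Its probe (A_51_P302738) was well above background on 0 of 12 baseline, 0 of 12 control and 1 of 12 quercetin arrays. The median Cy5 signal over the local background was 1.31, 1.32 and 1.26 in these groups, and no level or difference is given for it.

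The 6 other members were tested between groups with limma, with Benjamini-Hochberg adjustment over all 21781 probes, and a gene was called at an adjusted p under 0.05. Where a gene had 2 probes the brighter was used. Limma called 0 of the 6 between quercetin and control, where 2.36% of all probes were called. Dpys alone was called between control and baseline, where 21.3% of all probes were called. Limma called 0 of the 6 between quercetin and baseline, where 11.9% were. At an unadjusted p under 0.05 the counts for quercetin against control and against baseline were 1 (Dpys) and 0, and the methods' t-test called 0 in both.

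Dpys, which opens the dihydrouracil ring, was lowest in the control group at both of its probes, over a far smaller range than Upp2. At its brighter probe (A_51_P244950, chromosome 15 of mm8, minus strand, chr15:39613077-39613136) it ranged from 13.82 to 14.33 in baseline (median 14.00), from 13.37 to 14.12 in control (median 13.75) and from 13.79 to 14.43 in quercetin mice (median 13.97). The ranges overlapped, yet 10 of 12 control mice lay below the baseline median and 12 of 12 quercetin mice above the control median. Control was below baseline by a difference of -0.27 (standard error 0.07, adjusted p = 0.00862, limma). Quercetin exceeded control by 0.26 (standard error 0.07, adjusted p = 0.0664, limma), which was not called, and differed from baseline by -0.01. The dimmer probe (A_52_P470560, chr15:39656995-39657054) gave the same 0.26 for quercetin minus control with an adjusted p of 0.0475 (limma), and gave -0.11 for control minus baseline with an adjusted p of 0.351. There the quercetin mean also lay 0.15 above baseline (adjusted p = 0.184, limma). Each call of Dpys depended on the probe, and the residuals of the 2 probes correlated at r = 0.522 over the 36 mice. Under 6 of the alternative ways of computing the values or the fit, the brighter probe was also called between quercetin and control, and with slide as a fixed block its adjusted p was 0.219. The Dpys difference between control and baseline had an adjusted p of 0.163 against baseline replicates 1 to 6 alone.

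Dpyd, the rate-limiting enzyme of uracil breakdown, differed little between the groups. Its log2 value ranged from 14.75 to 15.49 in baseline, from 14.93 to 15.66 in control and from 14.85 to 15.55 in quercetin mice. The difference of quercetin from control was 0.10 (standard error 0.08, adjusted p = 0.596, limma). Upb1, the last step to beta-alanine, ranged from 16.19 to 17.02 over all mice, and its quercetin minus control difference was 0.05 (standard error 0.07, adjusted p = 0.761, limma). Neither gene had a difference over 0.13 in any of the 3 comparisons.

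Cda, which feeds cytidine into the uridine pool, was the most variable of the 6 between mice, with an SD of 0.31 in baseline, 0.36 in control and 0.32 in quercetin. Its control minus baseline difference of 0.18 (standard error 0.13, adjusted p = 0.320, limma) was the largest among the members that were not called in any comparison. The kinase Uck1 ranged from 9.32 to 10.34 over all mice, and its largest difference was -0.11 for control minus baseline (adjusted p = 0.255, limma). Uck2, the other kinase, ranged from 10.09 to 11.11, and no difference exceeded 0.04. The highest value was that of control replicate 5, the liver with the high pancreatic acinar markers. The dimmer probes of Uck1 and Uck2 gave differences within 0.08 of 0.

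**Figure D2:**
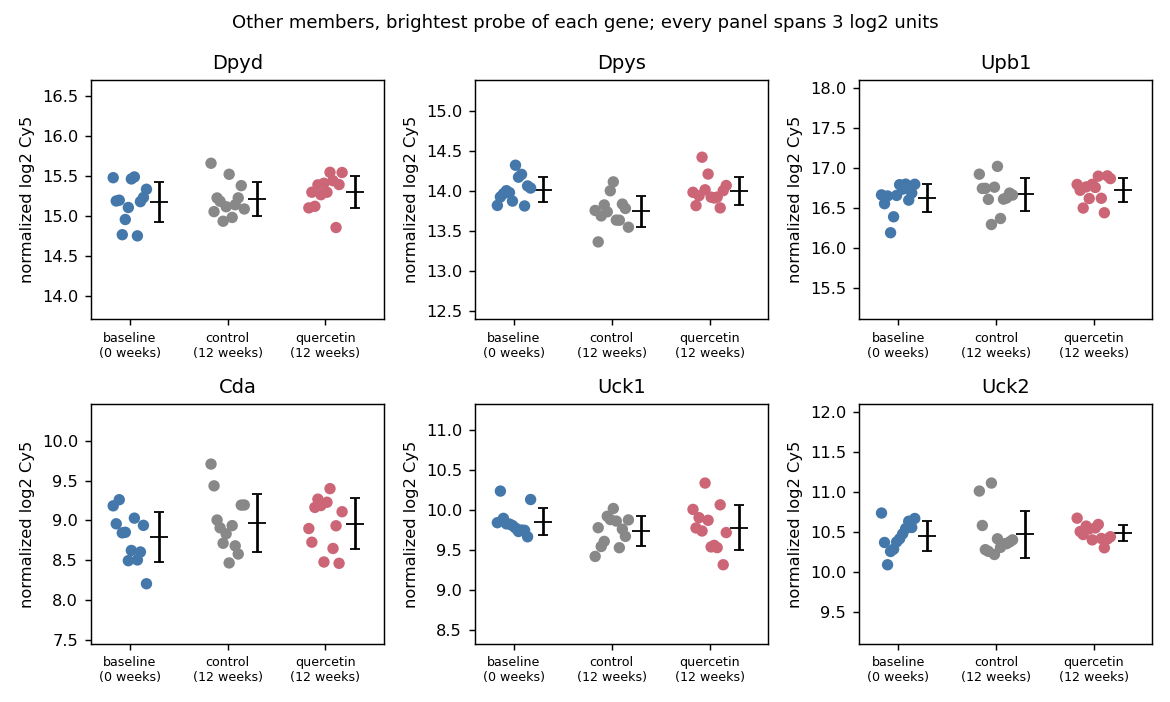
Normalized log2 Cy5 values of the 6 other members in each mouse (y axis, brightest probe, every panel spanning 3 log2 units) by group (x axis), with the mean ± SD in black. Apart from the lower Dpys values in control mice, from 13.37 to 14.12, the 3 groups lie at nearly the same height in each panel; levels are not comparable between genes.

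The rest of pyrimidine metabolism was described through 40 genes of degradation, synthesis, salvage, nucleotide steps, nucleotidases and transport, of which 34 were in the table. Between quercetin and control 1 was called higher and 1 lower, between control and baseline 5 higher and 4 lower, and between quercetin and baseline 3 higher and 3 lower, where the shares of all probes called higher and lower were 1.49% and 0.863%, 10.9% and 10.4%, and 6.62% and 5.3%. Their median differences were -0.01, 0.03 and 0.06, and those of all probes were 0.0129, -0.00473 and 0.0140. In each comparison the median of the list lay within 0.05 of that of all probes. Upp2 lay outside the range of the list in the comparisons of control with quercetin and with baseline. It was selected on these differences, so its place beside an unselected list is a description only.

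Past the members, the degradation pathway continues with the aminotransferases Agxt2 and Abat, which act on the beta-amino acids it releases. Abat was lower than baseline in both later groups, at 14.89 ± 0.22 in baseline, 14.41 ± 0.28 in control and 14.39 ± 0.21 in quercetin mice (SD, n = 12). All 12 control and all 12 quercetin mice lay below the baseline median, with differences of -0.47 (adjusted p = 0.000989, limma) and -0.50 (adjusted p = 0.000383, limma). Agxt2 fell by 0.38 in control (adjusted p = 0.00357, limma) and by 0.41 in quercetin mice (adjusted p = 0.00465, limma). Between quercetin and control neither was called, and Upp2, selected on its differences, was 0.89 apart there.

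Tymp, thymidine phosphorylase, which splits thymidine as uridine phosphorylase splits uridine, had the opposite sign to Upp2 between quercetin and control. It was 11.92 ± 0.23 in control and 11.47 ± 0.23 in quercetin mice (SD, n = 12), a difference of -0.45 (standard error 0.09, adjusted p = 0.00617, limma), and all 12 quercetin mice lay below the control median. Against baseline the quercetin difference was -0.63 (adjusted p = 0.000196, limma). Entpd5, a nucleoside diphosphatase that acts on UDP, was 0.21 higher in quercetin than in control (adjusted p = 0.0499, limma), and it was no longer called with median centring, where its adjusted p was 0.0530.

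In synthesis and the nucleotide steps, the called genes differed between baseline and the later groups. Cad, which carries the opening steps of pyrimidine synthesis, was higher than baseline by 0.68 in control (adjusted p = 0.00365, limma) and by 0.63 in quercetin mice (adjusted p = 0.00276, limma), but its dimmest probe gave -0.09 and -0.02. Dtymk, thymidylate kinase, was higher by 0.41 in control (adjusted p = 0.000298, limma) and by 0.25 in quercetin mice, and the latter was -0.03 at its dimmest probe. The nucleotidase Nt5c was higher than baseline in both groups, by 0.23 and 0.15. Nme2, a nucleoside diphosphate kinase, and Rrm1, the large subunit of ribonucleotide reductase, were each 0.17 higher in control. Thymidine kinase Tk1 was lower in control by a difference of -0.34, and the transporter Slc29a2 by -0.13, which was 0.03 with the scanner values.

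**Figure D3:**
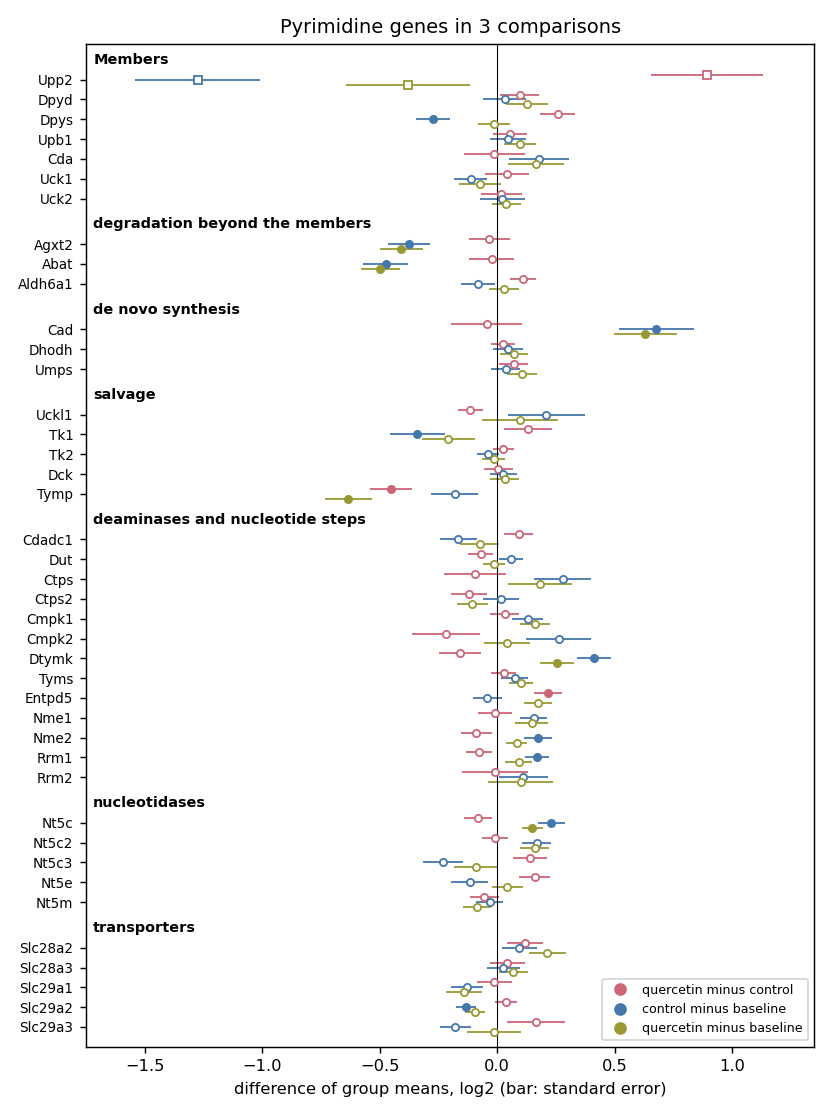
Difference of group means on the log2 scale with its standard error (x axis) for the members and the 34 other pyrimidine genes in the table (y axis, by step), in 3 comparisons. Filled points have a limma adjusted p under 0.05, open points do not, and the open squares of Upp2 carry no test. Upp2, which was selected on these differences, lies farthest from 0, at -1.28 and 0.89.

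Clock genes were compared with Upp2 because hepatic uridine breakdown is known to be rhythmic. Of 16 clock genes, 14 were in the table; Npas2 and Cry1 were not. Between quercetin and control 6 were called higher (Per3, Nr1d2, Dbp, Tef, Ciart and Usp2) and 2 lower (Arntl and Clock), beside 2.36% of all probes. Arntl, the activator also named Bmal1, was 8.78 ± 0.46 in control and 7.78 ± 0.53 in quercetin mice (SD, n = 12), a difference of -0.998 (adjusted p = 0.00340, limma). Dbp, a PAR-bZIP factor with a strong daily rhythm, was 0.92 higher in quercetin (adjusted p = 0.00741, limma), a size like that of Upp2. Between control and baseline Nfil3 was called higher and Per3 and Bhlhe41 lower, 3 of 14 beside 21.3% of all probes. Between quercetin and baseline limma called 0 of 14, beside 11.9% of all probes. The methods' t-test also called 0 there, and 2 (Per2 and Usp2) had a limma unadjusted p under 0.05. The calls of Per3 did not hold with values computed from the scanner files, where its adjusted p was 0.353 for quercetin minus control and 0.524 for control minus baseline.

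Within each group, where diet does not differ, Upp2 was set against each clock gene across the 12 mice. The Dbp values of the baseline mice fell into 2 separate sets, as did those of Usp2, with a gap of 52.9% and 40.3% of their range and 4 mice below it, so no coefficient over all baseline mice is given for these genes. That left 40 relations, and 15 had an adjusted permutation p under 0.05 (100000 permutations, two-sided, Benjamini-Hochberg over the 40). They were 8 of 12 in baseline, 2 of 14 in control and 5 of 14 in quercetin. The number past the threshold was not tested for a difference between groups.

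Nr1d2, which encodes the repressor REV-ERB beta, had the highest Pearson's r with Upp2 among the clock genes in baseline and in quercetin mice; in control mice Dbp had. Pearson's r was 0.923 in baseline (adjusted permutation p = 0.0016), 0.679 in control (adjusted permutation p = 0.0407) and 0.816 in quercetin mice (adjusted permutation p = 0.0126). Spearman's rho was 0.930, 0.685 and 0.622, with adjusted permutation p of 0.0008, 0.0671 and 0.0976. Without the 2 mice farthest from the median of Nr1d2, r was 0.920, 0.649 and 0.568. Tef, another PAR-bZIP factor, had r = 0.914 in baseline (rho = 0.895, adjusted permutation p = 0.0022), 0.644 in control (rho = 0.706, adjusted permutation p = 0.0541) and 0.807 in quercetin mice (rho = 0.552, adjusted permutation p = 0.0273). Without the 2 farthest mice r for Tef was 0.877, 0.600 and 0.445.

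Arntl ran in the opposite direction in every group. Its r with Upp2 was -0.815 in baseline (rho = -0.783, adjusted permutation p = 0.0126), -0.654 in control (rho = -0.594, adjusted permutation p = 0.0537) and -0.583 in quercetin mice (rho = -0.601, adjusted permutation p = 0.0823). Without the 2 farthest mice it was -0.817, -0.668 and -0.692, so the coefficients did not rest on those mice. Clock, its partner, had r of -0.703, -0.561 and -0.621. In baseline, Ciart (0.862), Per2 (0.815), Nfil3 (-0.802) and Per3 (0.681) were also past the threshold. Dbp passed in control (r = 0.714, rho = 0.706, adjusted permutation p = 0.0351) and in quercetin mice (r = 0.687, rho = 0.455, adjusted permutation p = 0.0407), and Per1 (0.673) and Usp2 (0.684) also passed in quercetin mice.

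**Figure D4:**
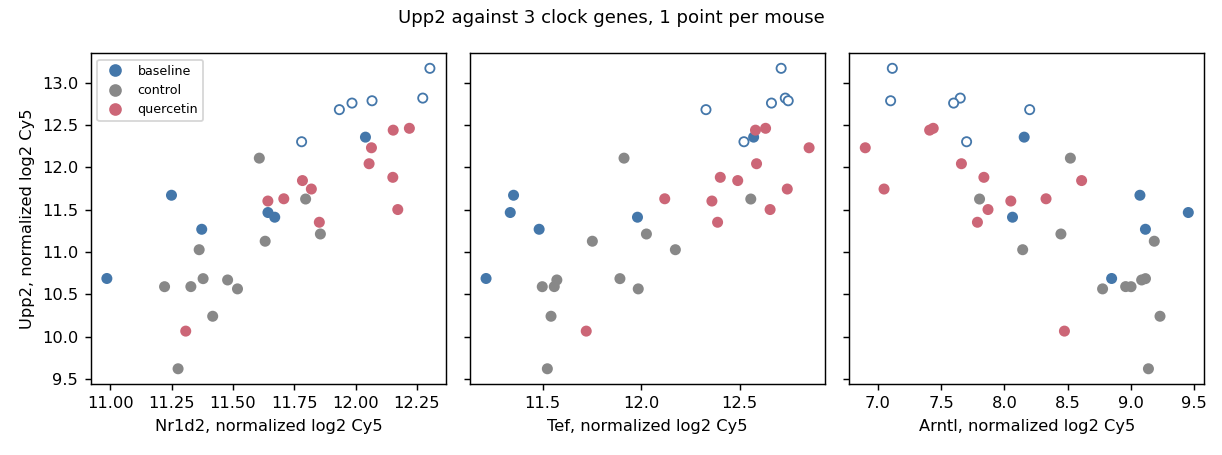
Upp2 (y axis) against Nr1d2, Tef and Arntl (x axes), all as normalized log2 Cy5 values, with a point for each of the 36 mice coloured by group and open points for baseline replicates 7 to 12. Upp2 runs upward with Nr1d2 and Tef and downward with Arntl, and quercetin replicate 10, at 10.07, sits apart from the other quercetin mice.

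Several of these relations did not pass the threshold in every check. In the quercetin group, none of the 14 relations passed the threshold when the 2 mice farthest from each clock gene's median were left out, and none passed with Spearman's rho. In control, neither Nr1d2 nor Dbp passed without the farthest mice, while Per1 did (r = 0.796, adjusted permutation p = 0.0328), and none passed with rho. The control coefficients of Nr1d2 and Dbp changed little, from 0.679 to 0.649 and from 0.714 to 0.695. With fewer mice the same r gives a larger p. In the baseline group the 2 sets of replicates differed in both Upp2 and the clock genes, and within 6 mice no relation passed the adjusted threshold. Nr1d2 there had r = 0.840 in replicates 1 to 6 (exact permutation p = 0.0444, adjusted 0.486) and 0.889 in replicates 7 to 12 (exact permutation p = 0.00417, adjusted 0.117). Arntl had -0.379 and -0.531 in the same sets. Tef had 0.783 and 0.505, Ciart 0.451 and 0.378, and Per2 0.604 and 0.354. Nfil3 had -0.471 and -0.846, Per3 0.491 and 0.446, and Clock -0.205 and -0.450. Ciart did not overlap between the sets, at 6.28 to 7.87 and 8.10 to 9.29. The coefficients over the 12 baseline mice and their permutation p therefore include the difference between the 2 sets.

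**Figure D5:**
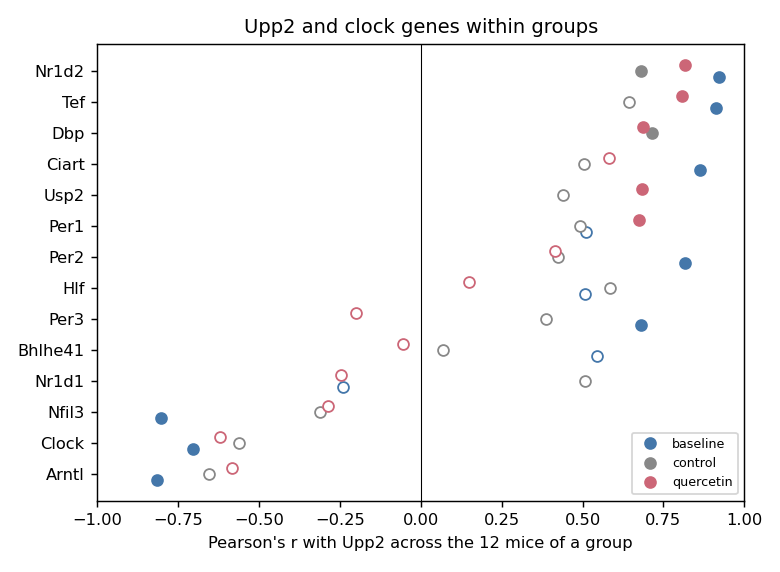
Pearson's r of Upp2 with each of 14 clock genes (y axis) across the 12 mice of a group (x axis, from -1 to 1). Filled points have an adjusted permutation p under 0.05, and baseline has no point for Dbp and Usp2; Nr1d2 and Tef lie at the right in all groups and Arntl and Clock at the left, while Nr1d1 and Bhlhe41 straddle 0.

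With group means removed, the coefficients over the 36 mice were 0.826 for Nr1d2, 0.804 for Tef and -0.707 for Arntl. With slide means removed as well they were 0.827, 0.802 and -0.762. The split within the baseline mice is part of these values. When the Arntl value of each mouse was added to the fit, the Upp2 difference between quercetin and control was 0.11 (standard error 0.28) in place of 0.89, and that between control and baseline was -0.77 (standard error 0.20) in place of -1.28. Arntl itself differed between quercetin and control, so diet and Arntl cannot be told apart in this fit. Under it 1 probe of the whole table was called between quercetin and control, against 513 without it.

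The other members were set against Arntl and Dbp in the same way, in 30 relations, of which 2 passed. In quercetin mice Dpyd rose with Dbp (r = 0.892, rho = 0.846, adjusted permutation p = 0.0045), also without the 2 farthest mice (r = 0.742), and without quercetin replicate 2 (r = 0.895). In control mice the same pair had r = 0.146. In quercetin mice Uck1 fell as Dbp rose (r = -0.795, rho = -0.874, adjusted permutation p = 0.0306, and -0.833 without the 2 farthest mice), and with values computed from the scanner files its adjusted permutation p was 0.141. The difference between the groups in these relations was not tested.

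Across the table, the genes whose values followed Upp2 most closely were ranked by Pearson's r over the 36 mice after group means were removed, as a description. The 10 highest of 13040 genes were Mknk2 (0.856), Nr1d2 (0.826), Ngef (0.824), Tef (0.804), Gys2 (0.798), Rhebl1 (0.795), Inmt (0.786), Bnip3 (0.784), Cyp2a5 (0.774) and Cyp2a4 (0.773). Gys2 is the glycogen synthase of liver, and Cyp2a5 and Cyp2a4 are near-identical cytochrome P450 genes whose probes may share signal. Among the lowest were Crip2 (-0.833), Lrfn3 (-0.778), Slc30a10 (-0.772) and Tprn (-0.770). For comparison, 90% of all genes lay between -0.389 and 0.460. The split within the baseline mice is part of these coefficients. In baseline and control mice r was 0.950 and 0.564 for Gys2 and 0.958 and 0.554 for Bnip3, but 0.821 and 0.846 for Inmt. With slide means removed the genes named here had coefficients of at least 0.770 in size.

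The other members were less like Upp2. Upb1 had 0.531, rank 349 of 13040 genes, Dpyd 0.498, rank 475, and Dpys 0.331, rank 1610. Upb1 and Dpyd lay above the middle 90% of all genes. In baseline, control and quercetin mice Upb1 had 0.774, 0.182 and 0.670, and Dpyd had 0.591, 0.118 and 0.768. The coefficients of Dpys, Uck2 (0.270), Uck1 (-0.288) and Cda (-0.383) lay within the middle 90% of all genes. Among the members themselves the closest pair was Dpyd and Upb1, with 0.691 over the 36 mice and 0.557, 0.806 and 0.750 in the baseline, control and quercetin groups.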

How the data were processed

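Liver RNA of 36 mice was hybridized to 36 two-colour Agilent arrays on 9 slides. The table of 23256 spots that the authors deposited gives Cy5 as log2 values, normalized against Cy3, and it was the source of all levels and differences. The deposited scanner files hold the median intensity of each spot and its local background in both channels, without normalization, and signals that Feature Extraction had adjusted (version 10.5.1.1 in the submitters' processing notes). The study's methods say that expressed spots were log transformed in GeneMaths XT and that Cy5 was normalized against Cy3 by a procedure described elsewhere. For comparison, log2(Cy5/Cy3) plus the mean log2 Cy3 from the scanner files differed from it by a median of 0.0192 (lowest correlation over arrays 0.9999). Its spots are those whose ratio of signal to background exceeded 2 as a mean over the arrays and both dyes. Every array of the table had the same median of 8.96. The percentage of spots well above background in Cy5 was at least 56.4 on every array. The number of arrays limits the precision.

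Spots of a probe were averaged, giving 21781 probes. Of 41174 probes on the array, 24367 were named through their accession, 8732 through another known symbol and 8075 had no symbol. Probe positions are those of mm8 in the scanner files, and promoter sequences and motifs came from RefSeq (GRCm38.p6). Groups and replicate numbers came from the sample titles. Each pair of groups was tested two-sided with limma (lmFit, eBayes) on its 24 arrays, with Benjamini-Hochberg adjustment over all probes and a call at an adjusted p under 0.05. The methods' t-test is the two-group test of the study's methods on the same values. Named were the members, called genes of the pyrimidine list, clock genes, and the 10 genes most and 5 least correlated with Upp2. A gene among the latter is not reported here. The members, gene lists, split of the baseline group and alternatives were chosen with earlier results of these data known. Correlations used 100000 permutations, or all permutations for 6 mice, and no pooled coefficient was given where a gap over 40% of the range, with at least 3 mice on either side, divided the values. The procedure was tested on simulated data for quercetin minus control with 200 changed probes: it recovered 91 of 100 with a log2 change of 0.5 and 98 of 100 with a change of 1, and called 12 unchanged probes.

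The alternatives were the scanner values with normexp (offset 50) and loess, Feature Extraction's processed signals, quantile normalization, median centring, other filters on dim probes, blocks for the slide, the position on it or the replicate number, Arntl as a covariate, all 36 arrays in one fit, parts of the baseline group, the dimmest probe of a gene, and the fit without quercetin replicate 2. The fit without control replicate 5 and the coefficients with group means removed were added after the data had been seen. R 4.3.3, limma 3.58.1, statmod 1.5.0, data.table (1.17.8), Python 3.11.15, numpy 2.4.6, scipy 1.17.1 and matplotlib 3.10.9 were used.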

Additional observations from a re-analysis of the deposited data

How the results depend on the processing

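The Upp2 difference between quercetin and control lay between 0.84 and 0.93 under 14 alternatives and was 0.11 with Arntl as a covariate. Several of the 14 could not change a Upp2 difference in any comparison. Upp2 has no other probe, so its dimmest probe was its main probe. The fit of all arrays together and the replicate block return the same differences of group means. The filters used the same scanner values, so they add no separate check of Upp2. The Upp2 difference between control and baseline stayed negative under all alternatives run, from -1.91 to -0.64. That between quercetin and baseline turned to 0.26 against baseline replicates 1 to 6 alone, and was negative under the others.

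Among the 6 other members, 1 (Dpys) in place of 0 was called between quercetin and control with the scanner values, under each of the filters on them, with Feature Extraction's signals, with quantile normalization, with all 36 arrays in one fit and with the dimmest probe. Between control and baseline 0 in place of 1 was called against baseline replicates 1 to 6, with Arntl as a covariate and with the dimmest probe. Over all probes, 210 in place of 513 were called between quercetin and control with slide as a fixed block and 1 with Arntl as a covariate. Against baseline replicates 1 to 6, 2304 in place of 4645 were called for control and 1614 in place of 2596 for quercetin, and against replicates 7 to 12, 1295 were called for quercetin. The halved baseline group holds fewer mice, and the cause of the other changes was not tested.

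Of the clock genes correlated with Upp2, 8 in baseline became 0 within replicates 1 to 6 and 0 within replicates 7 to 12, which hold 6 mice each. The 2 in control became 4 with the scanner values, 6 with quantile normalization, 1 without the 2 farthest mice (Per1, which was not among the 2) and 0 with Spearman's rho. The 5 in quercetin became 8 with the scanner values and 0 without the 2 farthest mice or with Spearman's rho. At the dimmest probe of a gene, the differences of Cad from baseline were -0.090 for control and -0.021 for quercetin, and that of Dtymk for quercetin was -0.026. Slc29a2 gave 0.029 for control minus baseline with the scanner values, filtered or not.

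Same-numbered mice did not deviate together: the correlation of their residuals had a median of -0.00971, 0.0606 and 0.0327 in the 3 comparisons, with 3, 4 and 4 of 12 pairs over 0.1. With the replicate block, 360 probes were called between quercetin and control, 4636 between control and baseline and 2372 between quercetin and baseline. Every group holds each replicate number, so the block could not change the Upp2 differences, which were 0.89, -1.28 and -0.38. The calls of the other members numbered 0, 1 and 0, as without the block.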
